A study of Mus musculus with 8 samples.

Results

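The control astrocyte transcriptome of the postnatal mouse spinal cord was described here from 4 RNA-seq libraries, the control samples among 8 in the series. These 4 libraries, named control S1, S2, S6 and S7 after their sample titles, were chosen by label alone. They came from cre-negative animals that the labels give as wild-type and Aldh1l1-GFP+, on a mixed Swiss-Webster background, at postnatal days 12 to 14. The other 4 samples carry Aldh1l1-cre and floxed Kir4.1 alleles and were not analysed here. Both genotypes carry the reporter, in which GFP is driven by the Aldh1l1 promoter, so any cell with that promoter active could enter the sort. Meninges were taken off the cord before papain dissociation, GFP+ cells were sorted by flow cytometry, and the NuGEN RNA-Seq V2 kit amplified cDNA along whole transcripts. The series' design text calls the libraries biological replicates, and the labels do not say whether a library came from 1 animal or from several, or whether control animals carried floxed alleles without cre.

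Astrocytes are the glial cells that take up neurotransmitter and potassium released by neurons, supply them with lactate, lipids and glutamine, couple to each other through gap junctions, and cover blood vessels with endfeet. In the spinal cord they arise from dorsal and ventral progenitor domains, and at the end of the second postnatal week they are still maturing. Kir4.1, encoded by Kcnj10, is the potassium channel that sets much of their resting conductance, and it is the gene the series as a whole is about.

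The libraries held 9941468 (S1), 8326618 (S2), 10393879 (S6) and 12275663 (S7) gene reads, after 5 abundant transcripts that are ribosomal RNA or gather ribosomal reads (mt-Rnr1, mt-Rnr2, Gm42418, Gm23935 and Lars2) were left out. Those 5 held between 39.2% and 46.2% of all gene reads. Levels are given as CPM, gene counts scaled to the same total in each library after those exclusions, which are not corrected for gene length. At these depths 3 counts correspond to 0.244 to 0.360 CPM, and a gene at 0 counts could be present up to that level. In every library 12401 genes reached 1 CPM, of which 11361 (91.6%) were protein-coding. They were 53.3% of the 21302 protein-coding genes in the tables, whose median level was 5.27 CPM.

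The labelled cell type was set against 11 lists of cell type markers. Slc1a2, the main glutamate transporter of astrocytes, stood at 18945, 19351, 15763 and 13349 CPM in S1, S2, S6 and S7, the order in which all library values are given. Aqp4, the water channel of endfeet, stood at 3894, 3288, 2781 and 3428 CPM. Kcnj10 stood at 1875, 3804, 3252 and 3331 CPM, and Aldoc, the aldolase isoform of astrocytes, at 3300, 3287, 1887 and 2429 CPM. All 4 genes were thus among the most sequenced of the transcriptome in every library, with Kcnj10 lower in S1 than in the others. Together they took 2.60% ± 0.343 (SD, n = 4) of gene reads. All 20 genes of the astrocyte list were above 100 CPM in every library, against 6.50% of protein-coding genes, and the list held 9.66%, 9.12%, 6.55% and 6.56% of gene reads.

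**Figure D1:**
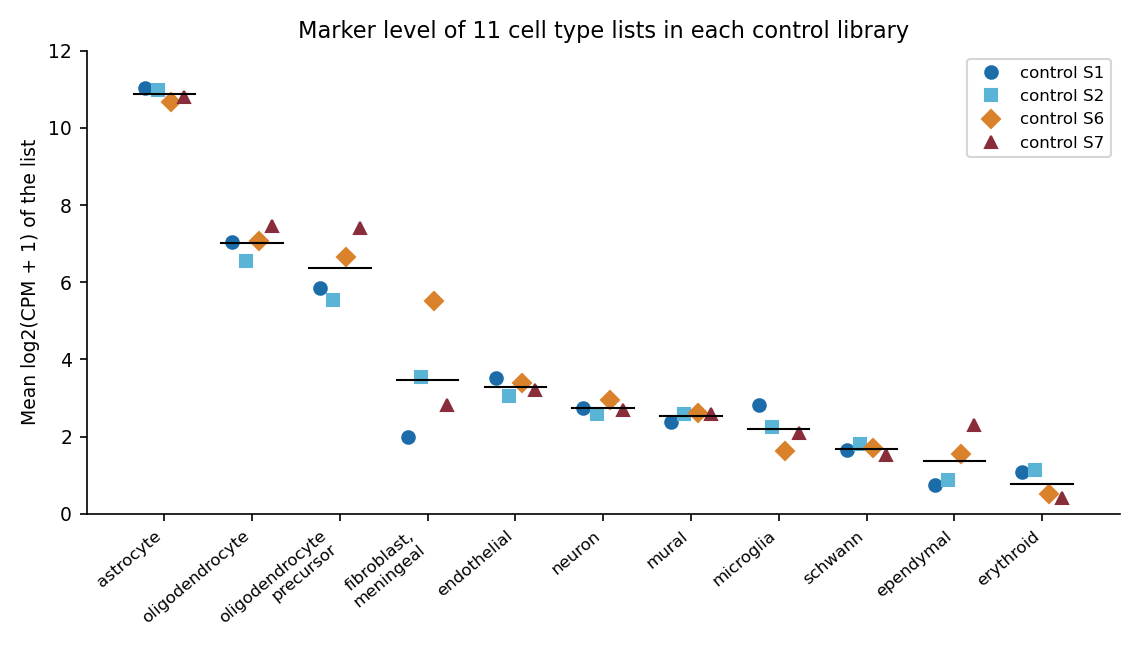
Mean log2(CPM + 1) of 11 lists of cell type markers, with 1 point for each of the 4 control libraries and a line at their mean. The astrocyte list lies between 10.67 and 11.04 in every library, oligodendrocyte and precursor lists between 5.54 and 7.46, and the fibroblast list is highest in S6.

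The plot of marker levels by list shows the distance between astrocyte markers and those of other cells. Averaged over its genes on the log2(CPM + 1) scale, the astrocyte list was at 10.87 ± 0.17 (SD, n = 4), and the highest other list in each library was 3.84 ± 0.48 (SD, n = 4) below it. That other list was the oligodendrocyte list in every library. Its 12 genes were all at 1 CPM or more in every library, against 53.3% of all protein-coding genes. Among them was Mbp, a major protein of central myelin, at 803, 629, 1313 and 1699 CPM. Oligodendrocyte precursor markers followed. Gpr17, a receptor of cells about to differentiate into oligodendrocytes, was at 537, 388, 836 and 1291 CPM, and Pdgfra, the growth factor receptor that defines precursors, at 23.6, 15.1, 67.9 and 124 CPM. In bulk RNA, fewer cells of a type and less RNA per cell cannot be told apart, so these values give no number of oligodendrocyte lineage cells.

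Other lists were lower. Microglial markers held 0.00521% to 0.00938% of gene reads, and Aif1, a calcium-binding protein of these cells, lay between 0 and 3.67 CPM. Among neuronal markers, Snap25, a protein of the synaptic release machinery, was at 36.6, 37.0, 38.4 and 68.8 CPM, and Chat, the enzyme that marks motor neurons, was at 0 counts in 3 libraries and 0.0815 CPM in S7. Endothelial markers summed to 95.5 to 136 CPM over 10 genes. Among mural markers the 2 highest, Notch3 (111 CPM ± 33.4) and Pdgfrb (60.9 CPM ± 17.9, SD, n = 4), were followed by Rgs5, a pericyte gene, at 0.302, 0.480, 9.62 and 12.5 CPM. Of 8 ependymal genes 1 was detected in every library, against 53.3% of all protein-coding genes. This was Foxj1, the regulator of motile cilia, with a mean of 18.66 CPM. The Schwann cell genes Prx and Mpzl2 had 0 counts in all 4 libraries. Summed over each list, the neuronal, vascular and microglial markers took less than the oligodendrocyte and precursor lists in every library. Single genes exceeded the precursor marker Pdgfra, Snap25 in S1 and S2 and Notch3 in all 4 libraries.

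The transcriptome was concentrated in few genes. A single transcript, the nuclear noncoding RNA Malat1, took 4.603%, 5.38%, 3.87% and 3.18% of gene reads. The 10 highest genes took 13.8% ± 2.14, the 100 highest 29.5% ± 2.80 and the 1000 highest 57.6% ± 2.63 (SD, n = 4). Only 65 genes were at 1000 CPM or more in every library, while 16795 of the 39174 genes in the tables had no count in any. By class, protein-coding genes held 92.4% ± 0.937 of the reads and long intergenic noncoding RNAs 5.59% ± 0.923 (SD, n = 4).

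**Figure D2:**
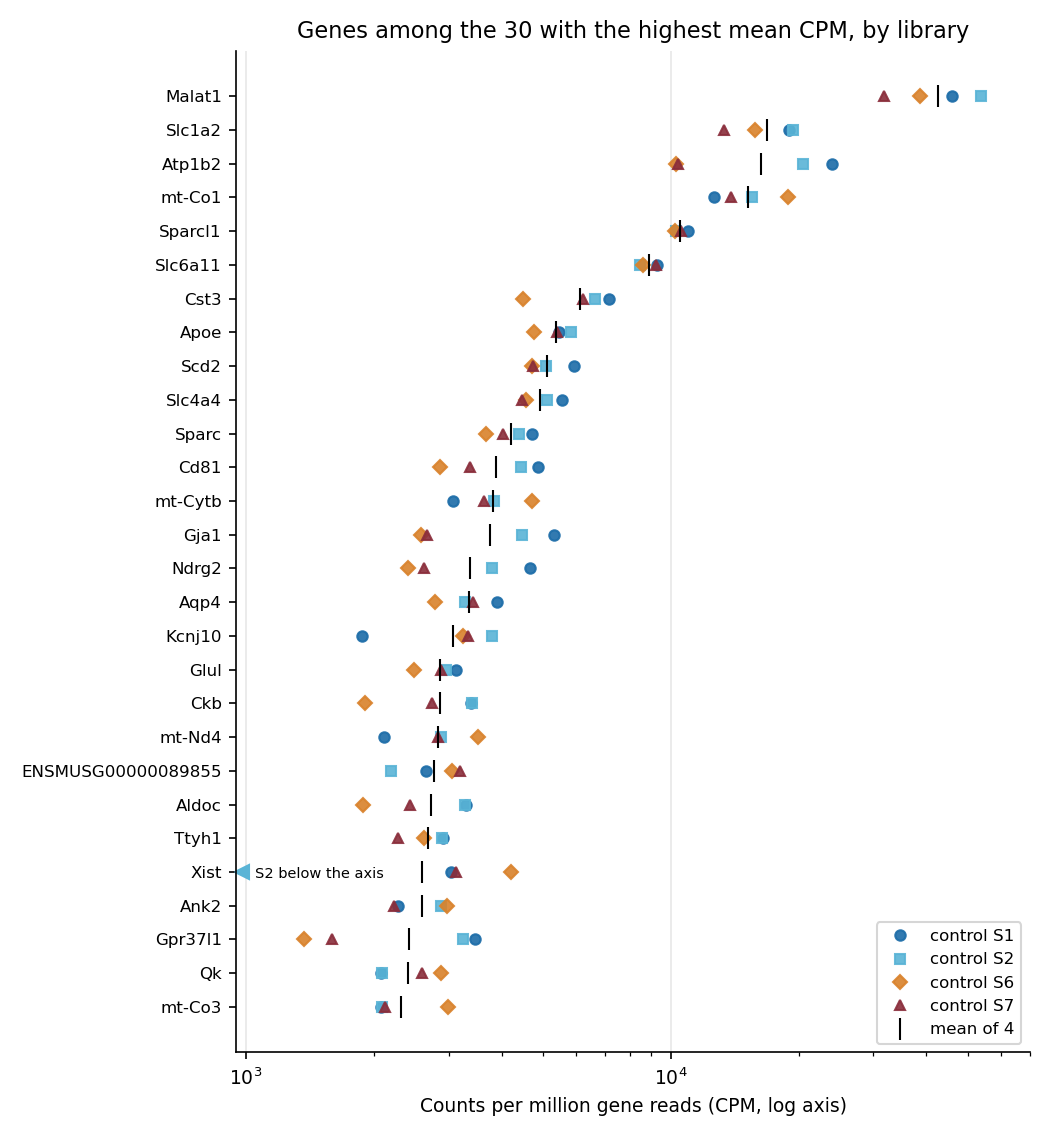
CPM on a log axis of genes among the 30 with the highest mean over the 4 control libraries, with 1 point per library and a bar at the mean. Sparcl1 and Slc6a11 have nearly the same value in every library, whereas Atp1b2, Gja1 and Gpr37l1 are higher in S1 and S2 than in S6 and S7, and Xist in S2 (0.721 CPM) lies off the axis.

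After Malat1 the highest genes by CPM included, in descending order, Slc1a2, Atp1b2, mt-Co1, Sparcl1, Slc6a11, Cst3, Apoe and Scd2, as the plot of the highest genes by CPM shows. Atp1b2 is the glial beta subunit of the sodium pump, Sparcl1 (hevin) and Sparc are secreted proteins that act on synapses, and Slc6a11 is a GABA transporter. Further down came Slc4a4 (a sodium bicarbonate cotransporter), Sparc, Cd81 (a tetraspanin), mt-Cytb, Gja1 (connexin 43), Ndrg2, Aqp4, Kcnj10, Glul (glutamine synthetase) and Ckb (brain creatine kinase). This order was common to the libraries as a set rather than gene by gene. Malat1 ranked 1st and Slc1a2 3rd in every library, and 74 genes were in the 100 highest of all 4. Of 30 pairs of neighbours in the order, 6 stood in the same order in all 4 libraries, and the ranges over libraries were separate for 3: Malat1 above Slc1a2, Sparcl1 above Slc6a11, and Slc6a11 above Cst3. All other neighbours overlapped. Kcnj10 ranked 17th in S2, S6 and S7 and 41st in S1. One identifier in the 30 highest, ENSMUSG00000089855 (2776 CPM ± 448, SD, n = 4), has no entry in the gene annotation used.

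Because long genes give more fragments, the same libraries were also ordered by FPKM, fragments scaled by transcript length and sequencing depth, as the authors computed it. This scale is meant to let levels of different genes be compared, but the result depended on how length was taken. Of its 100 highest protein-coding genes, 67 were shared with counts per exon length. The 4 control columns were used as a set, because the columns named S6 and S7 each followed the counts of the other library. Over 11467 genes the S6 column's deviations correlated with S7 counts at 0.855 and with S6 counts at −0.251, across genes, which are not independent replicates. FPKM values below are therefore means and ranges over the set. Whether the names are exchanged in the FPKM table or in the count tables was not settled, so every statement on S6 or S7 refers to the count library of that name.

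**Figure D3:**
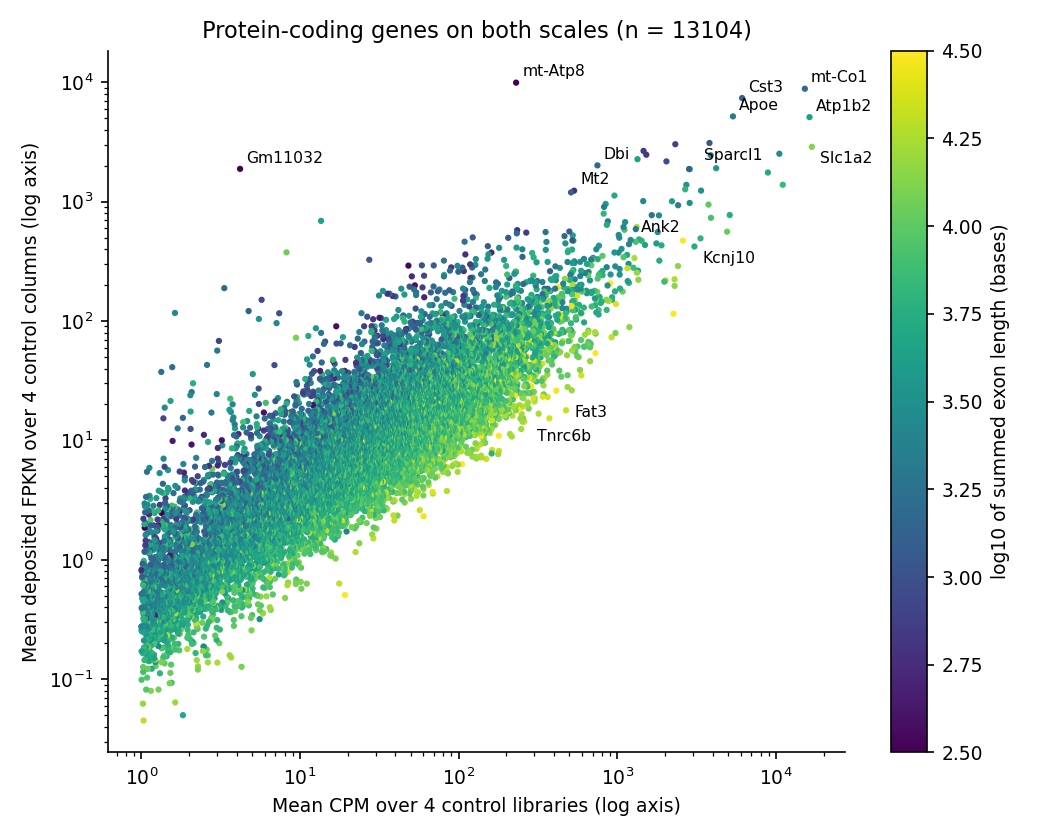
Mean CPM against mean deposited FPKM of 13104 protein-coding genes of at least 1 mean CPM, both on log axes, coloured by summed exon length. Long genes such as Fat3 and Tnrc6b lie at the lower edge of the cloud, and mt-Atp8 and Gm11032 lie far above it.

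Of the 20 highest genes of any class by FPKM, the 5 transcripts left out of CPM included, 11 were not annotated as protein-coding. Among these were Malat1 (17105 FPKM ± 4274) and ENSMUSG00000089855 (167884 FPKM ± 20517, SD, n = 4). By FPKM, the highest protein-coding genes were mt-Atp8 (9920 FPKM ± 1433), mt-Co1 (8819 FPKM ± 1498), Cst3 (7367 FPKM ± 1753), Apoe (5175 FPKM ± 663) and Atp1b2 (5100 FPKM ± 2467, SD, n = 4). Cst3 is cystatin C, a secreted protease inhibitor, and Apoe is the main lipid carrier of the brain and cord. Slc1a2 ranked 8th with 2877 FPKM ± 755, and Sparcl1 10th with 2518 FPKM ± 202 (SD, n = 4). Of the 20 highest protein-coding genes by FPKM, 8 were mitochondrial. Of 30 neighbouring pairs in this order none had separate ranges and 2 kept their order in all 4 columns, so the exact places carry little information. The plot of CPM against FPKM shows the 2 scales rising together with a scatter that follows exon length.

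The 100 highest protein-coding genes on each scale shared 62 members, 62.0% of either list. Those in the CPM list only had a median summed exon length of 6880 bases, against 2153 for those in the FPKM list only and 3480 for those in both. Short transcripts entered on the FPKM scale: Dbi, a small protein that binds acyl-CoA, was at 2012 FPKM ± 594 and 120th of all genes by CPM, and the metallothioneins Mt2 and Mt1 were at 1235 FPKM ± 293 and 1194 FPKM ± 169 (SD, n = 4). Outside the 100 highest by CPM, some long transcripts lay far lower on the FPKM scale. Fat3, a giant cadherin, was 227th by CPM among protein-coding genes and 3936th by FPKM. Tnrc6b, a silencing factor of microRNAs, was 308th and 4539th. Counts divided by exon length gave the order by a second route and shared 67 genes with the 100 highest by FPKM.

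The 5 genes that moved up most all overlap another annotated gene, as do 56.8% of detected protein-coding genes, and 4 of them are described. Ilk, integrin-linked kinase, had 0 counts in S1, S2 and S6 and 6.52 CPM in S7 but 117 FPKM ± 46.7, and overlaps Rrp8 and Taf10. Rnasek had at most 1.20 CPM and 196 FPKM ± 59.6, and overlaps Gm21988. For Gm20721 the values were at most 0.385 CPM and 287 FPKM ± 79.98 (SD, n = 4), and it overlaps Gnas. Gm26741, an annotated gene of 87 bases, had no count in any library and between 0 and 438 FPKM, and overlaps Gopc. The count tables hold 0.723% to 0.934% of reads as ambiguous between genes. For these genes the scales give different answers, and neither was used for a level.

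Of 13 listed genes of potassium and sodium handling, 11 were at 1 CPM or more in every library, against 53.3% of all protein-coding genes. The glial pump subunit Atp1b2 led. It was at 23999, 20490, 10264 and 10411 CPM, with S1 and S2 both far above S6 and S7. Within each library and per exon length, Atp1b2 stood 123 to 334 times above Atp1b1, the beta subunit of many other cells. On FPKM this ratio was 154 to 400. Kcnj10 (chromosome 1, 172341210 to 172374085, plus strand, GRCm38) stood 3.94 to 9.06 times above Kcnj16, which encodes the partner subunit Kir5.1, the lowest ratio being that of S1. Kcnk1, a 2-pore potassium channel, was at 1101, 634, 477 and 426 CPM. The summed share of the list was 4.16%, 3.83%, 2.41% and 2.36% of gene reads, following Atp1b2.

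Every one of the 16 transmitter clearance genes was detected in all 4 libraries, 9 of them above 100 CPM in each. Among all protein-coding genes these shares were 53.3% and 6.50%. Slc1a2 exceeded the second astrocytic glutamate transporter Slc1a3 by 7.17 to 13.9 times per exon length and by 6.01 to 12.4 times on FPKM. The GABA transporter Slc6a11 (GAT-3) was at 9292, 8465, 8616 and 9245 CPM, a CV of 4.77% against a median of 16.9% for the 100 highest protein-coding genes. Slc6a9, the glial glycine transporter, was at 1262, 1115, 725 and 737 CPM and, with 1124 FPKM ± 357, among the 30 highest protein-coding genes by FPKM. By counts per exon length it ranked 103rd, and it overlaps Gm17114, Ccdc24 and B4galt2. Glycine is a main inhibitory transmitter of the cord. Glul and Glud1, the enzymes that turn glutamate into glutamine and into ketoglutarate, were at 2861 CPM ± 271 and 2213 CPM ± 265 (SD, n = 4).

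Gap junction and endfoot genes were all detected, 12 of 12, against 53.3% of all protein-coding genes. The connexin genes Gja1 (5320, 4463, 2584 and 2672 CPM) and Gjb6 (1546, 1528, 652 and 655 CPM) were both higher in S1 and S2 than in S6 and S7. Their order depended on how length was taken: Gja1 stood 0.761 to 1.06 times as high as Gjb6 by counts per exon length and 1.37 to 1.79 times on FPKM. Hepacam, the adhesion protein that holds connexins and Mlc1 at contacts between astrocytes, was at 1036 CPM ± 146. The endfoot complex that anchors Aqp4 was present in Dtna (885 CPM ± 151) and Dag1 (797 CPM ± 64.6, SD, n = 4).

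Lipid genes were detected throughout, against 53.3% of all protein-coding genes, of which 6.50% were at 100 CPM or more in every library. All 16 lipid transport genes were detected, 14 above 100 CPM in each library, with a median CV (the SD as a percentage of the mean) of 14.0% and a summed share of 2.04% to 2.32% of reads. Apoe was at 5448, 5836, 4768 and 5400 CPM, and Scd2, a desaturase that makes monounsaturated fatty acids, at 5908, 5090, 4712 and 4752 CPM. Lrp1, a receptor for Apoe particles, was at 2152, 2272, 2443 and 2324 CPM. These 3 genes had CVs of 5.25% to 10.8%, whereas Acsl3, which activates fatty acids, was at 1838, 1831, 1197 and 1120 CPM, a CV of 26.2%, and Dbi had a CV of 30.02%. Among all protein-coding genes the median CV was 15.4% at 1000 CPM or more, the class of these genes except Dbi. At 100 to 1000 CPM, the class of Dbi, it was 17.8%. All 19 cholesterol synthesis genes were detected too, 11 above 100 CPM in each library. Hmgcs1, the enzyme before the rate-limiting step, was at 390, 299, 707 and 770 CPM, and Msmo1, a later sterol oxidase, at 404, 354, 386 and 405 CPM. S2 was the lowest library for the list as a whole, at 6.69 on the mean log2(CPM + 1) scale against 7.05 to 7.12 in the others.

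For glucose metabolism 22 of 22 listed genes were detected, against 53.3% of all protein-coding genes, with a median of 212 CPM. In 3 pairs of isoforms 1 member was higher in every library. Per exon length Aldoc stood 8.41 to 12.4 times above Aldoa, and on FPKM at least 7.46 times. Ldhb stood 7.11 to 9.42 times above Ldha per exon length, and 6.66 to 9.20 times on FPKM. Pygm, a glycogen phosphorylase first described in muscle, stood 1.79 to 2.28 times above Pygb, the brain isoform, per exon length, and 5.28 to 6.93 times on FPKM, so its size depended on the length used. Slc2a1, the glucose transporter, was at 643, 565, 346 and 397 CPM. Serine and folate genes were lower, with a median of 26.3 CPM. Aldh1l1, the folate enzyme whose promoter drives the reporter, was at 240, 224, 230 and 240 CPM, with a CV of 3.45% the most even gene of the astrocyte list.

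All 18 genes of metal binding and oxidant defence were detected, against 53.3% of all protein-coding genes. Mt2 was at 530, 581, 376 and 652 CPM and Mt1 at 469, 476, 467 and 634 CPM. Mt2 exceeded Mt1 by 1.70 to 2.59 times per exon length but stood at 0.777 to 1.21 times on FPKM, so the order of these neighbouring genes was not settled. Prdx6, a peroxidase of astrocytes, was at 406 CPM ± 77.9 (SD, n = 4). Ceruloplasmin (Cp), a copper-binding ferroxidase, was at 3.92, 5.16, 45.6 and 5.38 CPM, with S6 standing apart.

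Secreted and matrix genes made up 2.79% ± 0.174 of reads (SD, n = 4), most of it from Sparcl1, Cst3 and Sparc. Sparcl1 was at 10959, 10266, 10262 and 10577 CPM, a CV of 3.14%, the lowest of the 100 highest protein-coding genes. Ncan and Bcan, the proteoglycans neurocan and brevican, were at 1981 CPM ± 365 and 1765 CPM ± 150 (SD, n = 4). Ptn, a growth factor, was at 781, 723, 1297 and 1455 CPM, higher in S6 and S7. Thbs4, a thrombospondin, had 0 counts in all 4 libraries, and Chrdl1, a secreted factor of cortical astrocytes that matures synapses, was at 0 to 1.55 CPM. Thbs2 was at 176, 180, 117 and 79.3 CPM.

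Transcription factors of astrocyte identity were detected without exception, 24 of 24, with a median of 183 CPM and a median CV of 16.2%. Zbtb20 (904 CPM ± 141), Nfia (604 CPM ± 101), Nfix (418 CPM ± 129), Nfib (363 CPM ± 43.9) and Sox9 (315 CPM ± 38.0, SD, n = 4) led the list. Nuclear factor I proteins and Sox9 start the switch from neurons to glia in the embryonic cord. Position along the body axis was recorded by HOX genes, of which 38 were in the tables and 26 at 1 CPM or more in every library. Hoxd8 was at 62.9, 62.5, 57.2 and 87.2 CPM, Hoxa9 at 37.8, 50.3, 64.4 and 22.7 CPM, and Hoxc8 at 45.7, 42.3, 53.2 and 31.6 CPM. Hoxc10, a gene of lumbar levels, was at 29.8, 24.1, 40.02 and 45.5 CPM, and Hoxa5, of cervical levels, at 14.6, 25.3, 24.4 and 39.3 CPM, so genes of several levels of the trunk were present. The last HOXD genes, Hoxd12 and Hoxd13, had 0 counts in all libraries. Forebrain factors were at or near 0: 7 of 8 genes, Emx1, Emx2, Lhx2, Otx1, Otx2 and Six3 among them, had no count in any library, and Dmrta2 was at no more than 0.577 CPM. Of all protein-coding genes 53.3% were at 1 CPM or more in every library, and 6.50% at 100 CPM or more. No HOX gene reached 100 CPM in each.

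Factors of the dorsal and ventral progenitor domains were found side by side. Of 16 listed, 12 were at 1 CPM or more in every library, against 53.3% of all protein-coding genes. Reln, a secreted protein made by astrocytes of some ventral domains, was at 220, 232, 362 and 374 CPM. Pax6 was at 64.0, 65.3, 77.3 and 78.9 CPM, and Zic1 and Pax3, factors of the dorsal cord, at 59.8 CPM ± 12.7 and 30.95 CPM ± 14.64 (SD, n = 4). Nkx2-2, a ventral factor that oligodendrocyte precursors make as well, was at 42.6, 46.5, 76.4 and 159 CPM and was highest in S7. The list of oligodendrocyte precursor markers was highest in S7 too, and its part in the Nkx2-2 level was not tested.

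Of 20 neurotransmitter and modulator receptors 19 were detected in every library, against 53.3% of all protein-coding genes. Ednrb, the endothelin receptor, was at 1542, 1327, 1183 and 1346 CPM, and Gabbr1 and Gabbr2, the 2 subunits of the GABA-B receptor, at 765 CPM ± 143 and 278 CPM ± 116. Adra2a, an adrenergic receptor, was at 419 CPM ± 84.3. Gria4, an AMPA receptor subunit, was at 259, 250, 262 and 258 CPM, and this CV of 1.96% was among the 10 lowest of 7076 protein-coding genes with a mean of at least 20 CPM. In the calcium list, Atp2a2, the pump that refills the endoplasmic store, was at 1184 CPM ± 131, and Itpr2, the store release channel typical of astrocytes, at 409 CPM ± 80.8 (SD, n = 4).

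Receptors and effectors of the Hedgehog and Notch pathways were also present, 15 of 17 listed genes, against 53.3% of all protein-coding genes. Ptch1, both the receptor and a target of Hedgehog signalling, was at 849, 875, 682 and 1004 CPM. Gli3 and Gli2 were at 196 CPM ± 19.2 and 157 CPM ± 28.3, and Notch2 and Notch1 at 344 CPM ± 24.3 and 325 CPM ± 38.5 (SD, n = 4). Dll1, a Notch ligand, had no count in 3 libraries and stood at 0.577 CPM in S6.

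Cytoskeletal and intermediate filament genes were detected throughout, 12 of 12, against 53.3% of all protein-coding genes. For 11 of them S6 and S7 were the 2 highest libraries, a pattern seen in 27.7% of the 12401 detected genes. Gfap, the filament of mature and reactive astrocytes, was at 262, 240, 450 and 497 CPM. Vim was at 16.2, 13.6, 25.5 and 35.1 CPM and Nes, the filament of progenitors, at 3.92, 3.60, 5.00 and 4.32 CPM. Per exon length Gfap stood 15.9 to 19.9 times above Vim, and on FPKM 4.46 to 11.1 times.

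Genes of reactive states and of the dissociation response were read against protein-coding genes in general, of which 53.3% reached 1 CPM in every library. Of 13 pan-reactive genes 7 were detected in every library, only Gfap and Serpina3n (180, 209, 126 and 159 CPM) above 100 CPM in each, and Lcn2, the most used marker of acute reactivity, had 0 counts in all 4. Of the genes tied to the A1 state 7 of 12 were detected, led by H2-D1 (35.2 CPM ± 10.5), with C3, the usual marker, at 0 to 1.68 CPM. Of those tied to the A2 state 3 of 12 were detected, led by S100a10 (13.0 CPM ± 2.89). Among 21 immediate early and dissociation genes 10 were detected, with Klf6 (56.3 CPM ± 9.65) and Jun (37.75 CPM ± 21.01, SD, n = 4) the highest. Fos was at 6.64, 2.28, 6.93 and 7.41 CPM. No gene of the last 3 lists reached 100 CPM in every library, a level that only 6.50% of all protein-coding genes reached.

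Mitochondrially encoded genes other than the ribosomal RNAs held 2.59%, 3.15%, 3.99% and 3.01% of gene reads. Of the 13, 12 were detected, against 53.3% of all protein-coding genes. S6 was the highest library for all 12, as it was for 3716 of the 12401 detected genes. The most sequenced, mt-Co1, a subunit of cytochrome oxidase, was at 12678, 15495, 18871 and 13869 CPM. The one below the threshold, mt-Nd4l, was at 0.385 to 1.01 CPM and overlaps mt-Nd4. The high FPKM of mt-Atp8, an annotated gene of 204 bases that overlaps mt-Atp6, put it 1st among protein-coding genes, whereas counts per exon length put it 16th.

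The letters of promoters were compared across expression levels, since highly expressed genes of differentiated cells often differ from housekeeping genes there. Windows of 300 bases, from 250 before to 50 after the RefSeq start on GRCm38.p6, were read for 16206 protein-coding genes. TATAAA, the core of the TATA box, was searched on both strands, as was GGGCGG, the core of a GC box, and CG pairs were counted. The 4 windows below are shown in 5′ to 3′ order of the gene's strand, with matches to either strand in capitals. CCGCCC is GGGCGG on the other strand. Kcnj10 and Aldoc are shown as 2 of the 4 astrocyte markers described first above. Of the 100 highest protein-coding genes by CPM, 74 had a window. Ckb and Agt are the 2 of these with TATAAA on their own strand 20 to 40 bases before the start.
Kcnj10, chr1:172340960-172341259, plus strand: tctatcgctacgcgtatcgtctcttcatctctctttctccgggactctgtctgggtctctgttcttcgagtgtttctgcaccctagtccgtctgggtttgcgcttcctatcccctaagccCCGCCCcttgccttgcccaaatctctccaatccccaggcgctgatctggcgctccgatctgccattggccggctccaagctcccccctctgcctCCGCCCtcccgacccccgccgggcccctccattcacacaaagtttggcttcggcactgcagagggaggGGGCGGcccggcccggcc
Aldoc, chr11:78322823-78323122, plus strand: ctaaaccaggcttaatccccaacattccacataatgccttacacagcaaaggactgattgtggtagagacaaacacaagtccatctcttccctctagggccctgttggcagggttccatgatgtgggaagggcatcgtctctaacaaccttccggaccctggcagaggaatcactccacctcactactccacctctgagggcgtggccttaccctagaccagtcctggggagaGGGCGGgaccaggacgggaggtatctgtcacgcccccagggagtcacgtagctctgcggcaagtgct
Ckb, chr12:111672289-111672588, minus strand: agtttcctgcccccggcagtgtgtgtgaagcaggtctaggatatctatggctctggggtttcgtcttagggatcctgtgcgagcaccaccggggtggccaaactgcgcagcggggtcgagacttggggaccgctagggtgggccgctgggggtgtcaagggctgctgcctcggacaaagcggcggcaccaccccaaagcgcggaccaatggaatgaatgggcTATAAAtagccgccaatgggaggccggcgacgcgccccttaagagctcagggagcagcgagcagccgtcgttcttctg
Agt, chr8:124569657-124569956, minus strand: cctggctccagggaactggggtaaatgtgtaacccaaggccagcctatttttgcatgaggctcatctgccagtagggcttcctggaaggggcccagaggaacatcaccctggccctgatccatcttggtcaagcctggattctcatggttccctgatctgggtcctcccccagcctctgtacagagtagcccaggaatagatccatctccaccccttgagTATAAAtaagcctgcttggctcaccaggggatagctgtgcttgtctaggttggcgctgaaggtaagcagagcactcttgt
Kcnj10 had 3 GGGCGG matches, 21 CG pairs and no TATAAA. Aldoc had 1 GGGCGG match and 8 CG pairs, in a window whose start lies 105 bases inside the GENCODE gene. Ckb had TATAAA 28 bases and Agt 30 bases before the start, and the Ckb window held 22 CG pairs where that of Agt held 1. Agt, angiotensinogen, was at 1309 mean CPM.

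Across levels the shares of both motifs differed, given here without a test. GGGCGG was present in 13.7% of windows of genes with no count, 67.9% at 10 to 100 CPM, 68.5% at 100 to 1000 CPM and 64.2% (34 of 53) at 1000 CPM or more. TATAAA was present in 27.3% of windows of genes with no count, 5.67% (79 of 1393) at 100 to 1000 CPM and 15.1% (8 of 53) at 1000 CPM or more, against 12.6% of all 16206 windows. The median number of CG pairs was 2, 24 and 17 in the same 3 classes. Of the 74 windows among the 100 highest genes, 11 (14.9%) held TATAAA and 48 (64.9%) GGGCGG. A match describes letters in the window and is not a binding site.

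**Figure D4:**
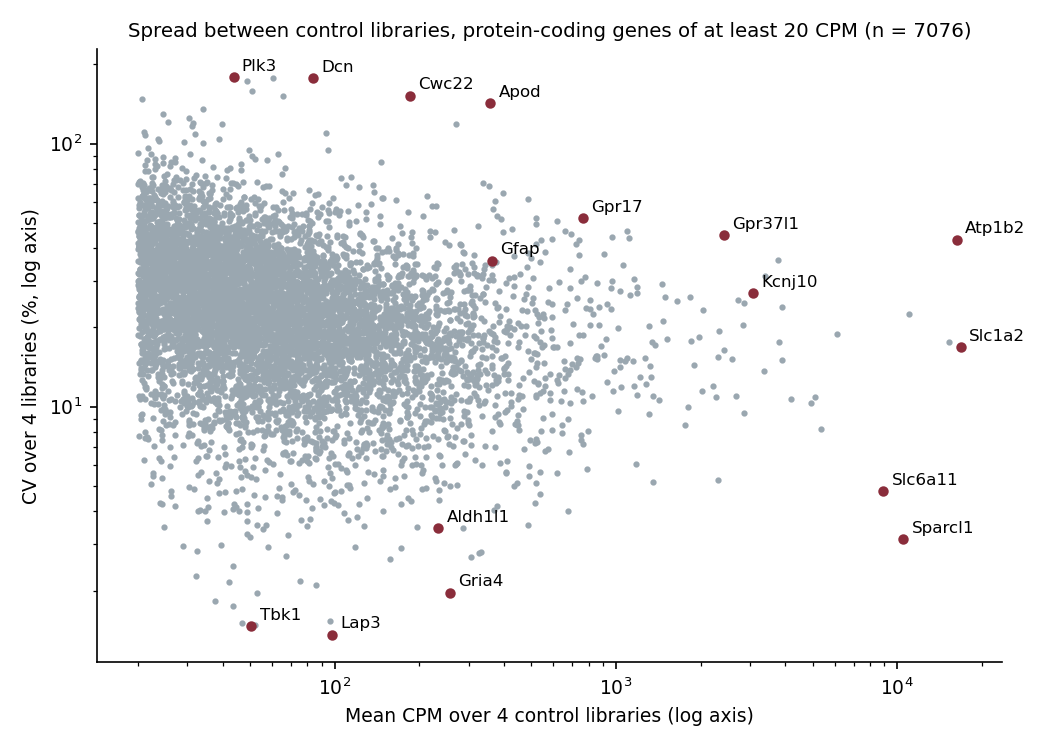
CV over the 4 control libraries, in percent, against mean CPM for 7076 protein-coding genes of at least 20 mean CPM, both on log axes. Sparcl1 and Slc6a11 lie at the lower edge among the highest genes, Atp1b2 and Gpr37l1 at the upper edge, and Plk3, Dcn, Cwc22 and Apod are among the most variable genes of all.

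The spread between control libraries was estimated over all detected genes. The common biological coefficient of variation from edgeR was 0.376 over 12401 genes, an estimate of the spread relative to the mean beyond counting error. Among 7076 protein-coding genes of at least 20 CPM the median CV was 22.7%, and among the 100 highest it was 16.9%. The plot of CV against mean CPM shows both ends. On CPM scaled to library totals, the most even genes were of moderate level. Lap3, an aminopeptidase, was at 97.8, 97.0, 97.3 and 99.95 CPM, with Tbk1, Letm1, Mob4 and Ift80 close behind at CVs of 1.47% to 1.53%. Among astrocyte genes, Sparcl1, Aldh1l1, Slc6a11 and Apoe had CVs of 3.14%, 3.45%, 4.77% and 8.24%. All these CVs are for counts scaled to library totals. The factors of TMM, another scaling, were 0.940, 0.976, 1.05 and 1.03, a wider spread than the lowest CVs. Which genes are the most even therefore depends on the scaling, and so do the low CVs given above. The most variable was Plk3, a kinase of the stress response, at 3.62, 5.40, 4.81 and 161 CPM, and its level was set by S7 alone. Cwc22, a splicing factor, was at 26.9, 606, 71.1 and 35.6 CPM and was set by S2, and Yif1a, a protein of the secretory pathway, at 19.3, 17.2, 215 and 10.4 CPM, by S6.

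**Figure D5:**
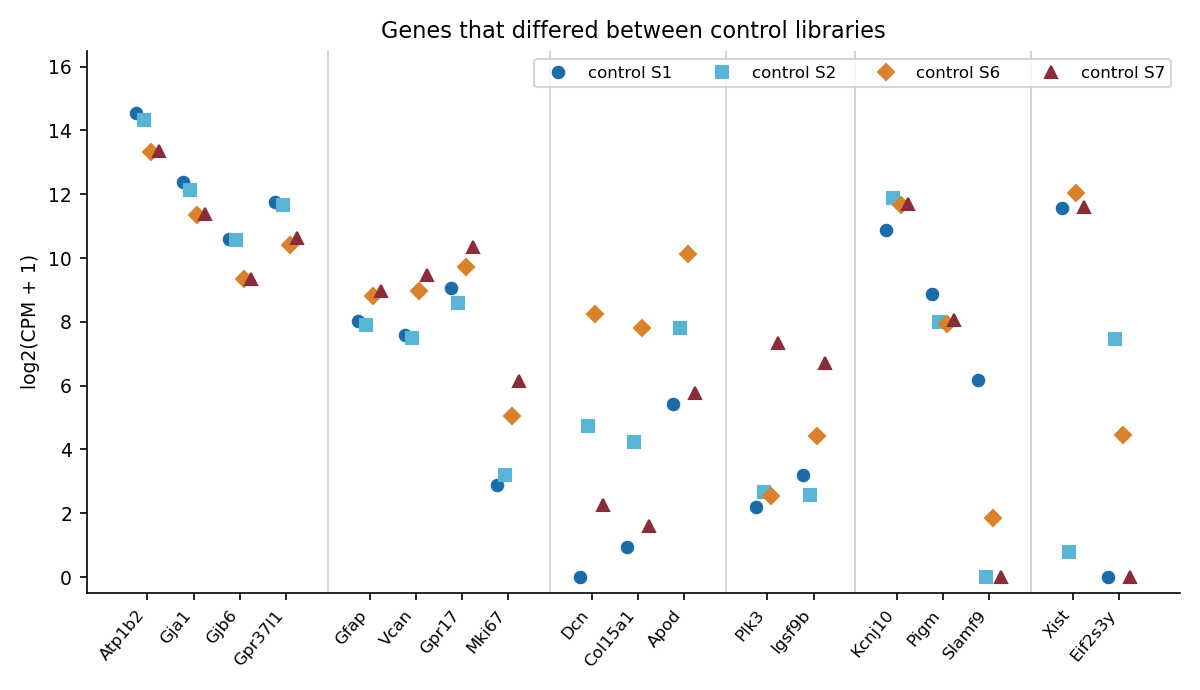
log2(CPM + 1) in each control library of genes that differed between them, in blocks by the library or libraries concerned. Astrocyte genes such as Atp1b2 and Gjb6 are higher in S1 and S2, glial lineage genes such as Vcan and Gpr17 in S6 and S7, matrix genes such as Dcn in S6, and Xist and Eif2s3y are both present in S6.

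The plot of genes that differed between libraries sets out several patterns within this 1 group, described after their values were seen. S1 and S2 were the closest pair, with 7.66% of 12401 genes at least 2-fold apart, against 14.1% to 20.9% for other pairs, and the chi-square per degree of freedom between pairs, near 1 for counting noise alone, was 18.5 to 73.0. In 12 of the 20 astrocyte genes S1 and S2 were the 2 highest libraries, a pattern seen in 16.4% of all detected genes. The astrocyte list shares genes with the pump, clearance and gap junction lists, so these are not separate evidence. Gpr37l1, a receptor of astrocytes, was at 3470, 3238, 1373 and 1597 CPM. In 7 of 12 oligodendrocyte genes and 6 of 9 precursor genes S6 and S7 were the 2 highest, against 27.7% of all detected genes. The labels name no batch, so a batch and the animals cannot be told apart.

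Several matrix and fibroblast genes were highest in S6. Dcn, the proteoglycan decorin, was at 0, 25.7, 305 and 3.83 CPM, Col3a1, a fibrillar collagen, at 0, 16.45, 172 and 15.7 CPM, and Col15a1, a collagen of basement membranes, at 0.905, 17.9, 221 and 2.04 CPM. Apod, an apolipoprotein, was at 41.5, 225, 1111 and 53.1 CPM, and Tgfbi at 3.22, 5.77, 66.6 and 7.41 CPM. The fibroblast list as a whole was at 1.99, 3.54, 5.51 and 2.82 on the mean log2(CPM + 1) scale and took 0.109% of reads in S6 against 0.0200% to 0.0342% in the others. The order of the list was S6, then S2, then S7 and S1. Col1a2 did not follow it, at 141, 205, 238 and 230 CPM, nor did Tgfbi, in which S7 was above S2.

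Some genes of dividing cells were highest in S7. Mki67, the usual marker of cycling cells, was at 6.44, 8.17, 32.1 and 69.9 CPM, and Pcna, the replication clamp, at 17.0, 18.0, 16.1 and 38.6 CPM. Of 16 proliferation genes 6 were detected in every library, against 53.3% of all protein-coding genes. Of those 6 genes, 5 were highest in S7, as were 34.0% of the 12401 detected genes. The precursor list, at 5.84, 5.54, 6.66 and 7.41 on the mean log2(CPM + 1) scale, ran in the order of Mki67 apart from S1 and S2. Pcna did not follow it, being lowest in S6. The part of the precursor list in the proliferation values was not tested. S7 also had the fewest genes with a read, 17979 against 18970 to 19106, despite the largest depth.

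In S1, Kcnj10 stood at 54.2% of the mean of the other 3 libraries, while Pigm, close to it on chromosome 1, an enzyme of GPI anchor synthesis (start and end 172376546 to 172384099), was at 472 CPM against 244 to 268 CPM. Slamf9, an immune receptor gene, was at 70.8, 0, 2.60 and 0 CPM, and its neighbour Igsf9 at 38.0, 0, 11.6 and 7.01 CPM. Lower Kcnj10 and higher levels of the genes beside it were thus seen in the same library, and the cause was not tested. Kcnj10 was still 41st among all genes in S1.

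Sex-linked transcripts differed too. Xist, the RNA of the inactive X chromosome, was at 3047, 0.721, 4204 and 3125 CPM, and the Y-linked genes Eif2s3y, Ddx3y, Kdm5d and Uty summed to 0.805, 344, 39.1 and 0.163 CPM. S2 carried Y transcripts and almost no Xist, S1 and S7 the reverse. S6 carried both, with 11.4% of the Y-linked sum of S2. The labels give no sex, and the cause of the mixture in S6 was not tested.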

How the data were processed

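RNA-seq of sorted spinal cord astrocytes was used from the 4 control libraries. Deposited counts per gene came from HTSeq 0.6.1p1 after alignment with TopHat2 2.0.11 and Bowtie2 2.2.3 to GRCm38, per the submitters' processing notes. The FPKM values were computed by the authors with Cuffnorm of Cufflinks 2.2.1, per the same notes. The 5 summary lines of each count table held 56.4% to 59.5% of reads and, with 5 ribosomal or ribosomal-like transcripts, were left out, and CPM was computed from the remaining gene reads. Ranges and SDs are over 4 libraries, and no groups were compared. Where nothing says that libraries came from separate animals, the spread may be partly technical. Counts per exon length used summed exons of GENCODE M21. The common coefficient of variation came from edgeR 4.0.16. DESeq2 1.42.0, other scalings (TMM and RLE), detection thresholds, keeping the excluded transcripts, protein-coding genes alone and leaving out each library were alternatives.

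The genes named were the 30 highest by CPM and by FPKM, up to 5 of each list with the highest CPM and any member with no count, the 10 highest and lowest CVs of at least 20 CPM, the 5 largest moves each way between the orders, and Kcnj10, Slc1a2, Aqp4, Aldoc and the chromosome 1 and sex-linked genes described. The members and lists were chosen with earlier results of these data known. Outside that rule, Agt, Aif1, Aldoa, Atp1b1, C3, Chat, Chrdl1, Dag1, Dll1, Fos, Hoxa5, Ldha, Ldhb, Mlc1, Nes, Pax3, Ptn, Pygb, Slc1a3, Thbs2, Vcan and mt-Nd4l were chosen after their values were seen. Some genes that this rule selects are not reported here. Promoter letters are from RefSeq.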

Additional observations from a re-analysis of the deposited data

Results flagged for a closer look

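In 20 of 263 sets of 4 library values, 1 library stood apart from the other 3, with a gap to its nearest neighbour, as a share of the whole range, above Dixon's critical value for 4 values. For unselected and independent sets chance gives about 1 in 20, or 13.2 of 263. These sets are neither, since some genes were named for a high or low CV and lists share genes. A gene with reads in only 1 library, such as Ilk, Pmp2 or Hba-a2, stands apart whatever its level. The 13.2 is thus no exact chance figure here, and a single set carries little weight.

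S7 was the high library in 8 sets. Plk3 was at 161.1 CPM against 3.621 to 5.404 in the others, Mt1 at 633.9 CPM against 467.1 to 476.3, Snap25 at 68.75 CPM against 36.61 to 38.39, and Pcna at 38.61 CPM against 16.07 to 18.01. C1qb, a complement gene of microglia, was at 7.413 CPM against 3.079 to 3.521, and Pifo, a gene of ciliated cells, at 7.169 CPM against 0 to 0.09621. Ilk was at 6.517 CPM in S7 and had no count elsewhere. The metal and oxidant defence list was at 6.692 on the mean log2(CPM + 1) scale against 6.399 to 6.449. S7 was low for Pdgfrb, at 34.3 CPM against 67.25 to 72.63, and in genes with a read, 17979 against 18970 to 19106.

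S6 was high for Cp, at 45.6 CPM against 3.923 to 5.376, and for mt-Co3, at 2995 CPM against 2077 to 2125, and low for the receptor list, at 6.672 against 6.747 to 6.76. S2 was low for Xist, at 0.7206 CPM against 3047 to 4204, for the potassium and pump list, at 7.216 against 7.279 to 7.286, and for the cholesterol list, at 6.693 against 7.05 to 7.122. S1 was high for Pigm, at 472 CPM against 244 to 267.6, and low for the mural list, at 2.371 against 2.585 to 2.603. Pmp2 and Hba-a2 were each at 0.1006 CPM in S1, a single read, and had no count elsewhere.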

How the results depend on the processing

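The share of gene reads in the 100 highest genes was 59.23% with the excluded transcripts kept and 26.47% over protein-coding genes alone, against 29.5%. The common coefficient of variation, 0.376 as reported, was 0.6598 with no filter on low counts and 0.3283 from the DESeq2 trend. Leaving out 1 library at a time gave 0.3367 (without S7) to 0.403 (without S1). It also gave 12615 to 12975 detected genes, 28.71% to 30.49% of reads in the 100 highest, 61 to 62 genes shared between orders, and a distance of 3.643 to 4.012 between the astrocyte list and the next. Detected genes numbered 9611 at 5 CPM and 14991 at 0.1 CPM. All 225 named genes kept their mean CPM within 1 SD under TMM and RLE, and 136 did not with the excluded transcripts kept. The result for TMM and RLE carries little information. TMM factors, from 0.940 (S1) to 1.05 (S6), lie on both sides of 1 and largely cancel in a mean over libraries. The effect of scaling on the spread of single genes is not given here. TMM moved the median gene by −0.0749 to 0.0885 log2. For FPKM, columns were left out by name. A gene with no count allows up to 0.360 CPM in the shallowest library, and limits cover counting error only. No paired analysis was possible because no contrast between groups was made and the 2 groups share no replicate numbers.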
